A study of Mus musculus with 5 samples.

Results

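Alpi, Akp3 and Alpl are the 3 genes described here, chosen by name from the 27998 gene rows of the deposited tables and not for any measured value. They encode alkaline phosphatases, enzymes that remove phosphate groups at the outer face of the cell. The study profiled single epithelial cells from the ileum, the distal part of the small intestine. All mice were C57BL/6, at an age of 8 to 12 weeks. The groups differ in surgery, either small bowel resection, in which part of the small intestine is taken out, or a sham operation. The labels give no other agent or allele. There were 3 sham libraries and 2 resection libraries, made with 10x Chromium 3' v2 chemistry, which counts the 3' ends of polyadenylated transcripts by unique molecular identifier (UMI). The labels do not say whether a library is 1 animal or a pool, so the spread between libraries may be partly technical.

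Alkaline phosphatases sit on the outer membrane through a glycosylphosphatidylinositol (GPI) anchor. In mice, Akp3 encodes the isozyme known mainly from the duodenum, Alpi the intestinal isozyme found more widely along the gut, and Alpl the tissue-nonspecific enzyme of bone, liver and kidney. The intestinal enzymes are classical markers of mature enterocytes, where they lie in the brush border, are shed into the lumen, and dephosphorylate bacterial lipopolysaccharide and free nucleotides. Alppl2, the embryonic-type alkaline phosphatase, is a further member of the family in the gene table and is given beside them.

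Of the 3 members, Alpi alone had UMIs in these libraries, with 20350 UMIs in 10369 of 19404 deposited cells. No UMI was assigned to Akp3 or Alpl in any cell of any library, over 126061000 UMIs in all. A count of 0 allows, at 3 counts, a level of up to 0.0238 CPM (counts scaled to a total of 1000000 UMIs) and a share of up to 0.0155% of cells with an assigned UMI for each of them. These limits cover counting error only and say nothing of cells that express a gene without an assigned UMI. In the single libraries the limit lay between 0.0727 CPM in resection 2 and 0.255 CPM in sham 1. Akp3 and Alpl were therefore not compared between surgery groups. Alppl2 had 232 UMIs in 223 cells.

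Alpi and its nearest relatives are neighbours in the genome, and their positions help to place the counts. In the GRCm38 build named in the submitters' processing notes, GENCODE places Alpi at chr1:87098002-87101606 on the minus strand and Akp3 at chr1:87124973-87127912 on the plus strand. The genes lie 23366 bases apart. Alppl2 lies at chr1:87086694-87089928 on the minus strand, 8073 bases from Alpi, and Alpl is on another chromosome, at chr4:137741733-137796384 on the minus strand. The coding sequences of Alpi and Akp3 were identical at 81.5% of aligned bases, those of Alpi and Alppl2 at 81.7%, and those of Alpi and Alpl at 66.1%. No run of 98 bases was shared between any pair of these coding sequences.

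The gene models differ at the 3' end, where this chemistry counts. The GENCODE M21 model of Akp3 ends with its stop codon, whereas the models of Alpi, Alpl and Alppl2 run 601, 704 and 354 bases past theirs. The RefSeq model of Akp3 extends 816 bases further. The last bases of the Akp3 model are shown, with the stop codon in capitals, because the model ends on them.
Akp3 coding end: ctactactaggggctcctgcggagtccTAA
Of 594 protein-coding genes in the gene table whose GENCODE M21 model has no base after the stop codon, 81.1% had no UMI in any library, compared with 25.9% of the 20725 others. These groups of genes were not matched for kind of gene or level of expression. The annotation used for counting is not given in the sources used here, and the part of the gene model in the count of 0 for Akp3 was not tested. The 0 is thus a statement about assigned UMIs and not about Akp3 transcripts. Alpl had 0 UMIs with a model that runs well past its stop codon.

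The promoters of the 3 genes on chromosome 1 are printed because these neighbouring relatives share promoter sequence. Each runs from 250 bases before to 50 bases after a transcript start in the RefSeq promoter table, 5′ to 3′ on the gene's own strand (RefSeq, GRCm38.p6), at chr1:87101557-87101856 for Alpi, chr1:87124704-87125003 for Akp3 and chr1:87089879-87090178 for Alppl2. The widest RefSeq extent of Alppl2 begins further upstream, at base 87095934, so its window lies inside that extent. Capitals mark a pair of blocks of 13 bases that all 3 promoters hold.
Alpi: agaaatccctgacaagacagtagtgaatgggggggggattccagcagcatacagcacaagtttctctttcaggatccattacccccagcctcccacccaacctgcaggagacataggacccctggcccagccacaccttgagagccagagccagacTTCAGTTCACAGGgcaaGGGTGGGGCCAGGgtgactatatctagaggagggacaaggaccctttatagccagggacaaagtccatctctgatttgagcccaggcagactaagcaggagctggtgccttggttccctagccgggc
Akp3: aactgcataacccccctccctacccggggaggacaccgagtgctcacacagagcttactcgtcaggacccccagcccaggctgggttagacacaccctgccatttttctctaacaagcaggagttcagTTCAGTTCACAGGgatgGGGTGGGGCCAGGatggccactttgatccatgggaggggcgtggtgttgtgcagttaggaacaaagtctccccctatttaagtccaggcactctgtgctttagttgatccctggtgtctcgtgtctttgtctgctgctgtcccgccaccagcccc
Alppl2: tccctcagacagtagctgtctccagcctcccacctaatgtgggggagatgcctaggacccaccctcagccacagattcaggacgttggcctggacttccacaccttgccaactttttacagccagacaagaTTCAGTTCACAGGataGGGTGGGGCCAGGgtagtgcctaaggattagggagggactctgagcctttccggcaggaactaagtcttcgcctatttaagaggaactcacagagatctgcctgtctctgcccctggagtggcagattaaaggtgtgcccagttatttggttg
The first block, TTCAGTTCACAGG, occurs on either strand in 10 of 32851 RefSeq promoters of this length and the other, GGGTGGGGCCAGG, in 16. The first begins 94 bases before that transcript start in Alpi, 122 in Akp3 and 119 in Alppl2. The sequence CAAAGTCCA, the core of an HNF4-type site, was searched on both strands and found in the Alpi promoter, 19 bases before the start. It was in 0.475% of all promoters and did not occur in the windows of Akp3 or Alppl2. CCACCC, a KLF-type sequence, searched on both strands, occurred 2 times in Alpi, 1 time in Akp3 and 2 times in Alppl2, and in 31.5% of all promoters. In each of these windows 1 match is the start of the second shared block, read on the other strand. These matches describe the letters of the windows and not sites of binding.

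The cells were grouped before the gene was read in them. After filters 18235 cells remained, with a median of 4523 to 6193 UMIs per cell in the 5 libraries, and they formed 22 clusters, named by marker genes with the ending "-like". No alkaline phosphatase was used for clustering or naming. The libraries fell into a pair of sets that filled largely different clusters. Sham 1 and resection 1 were 1 set, and sham 2, sham 3 and resection 2 the other. Among enterocyte-like cells, cluster composition overlapped by at most 3.30% across the sets. It overlapped by 4.22% between sham 1 and resection 1, and by 21.4% to 27.4% within the other set. Enterocyte-like cells of sham 1 and resection 1 thus also filled largely different clusters from each other. In some other classes these libraries shared clusters, with 228 cells of sham 1 and 694 of resection 1 among the 925 of an immature enterocyte-like cluster. The labels do not name the sets. Both hold sham and resection libraries, and the surgery differences of Alpi are also given inside each set. Of 19204 distinct cell barcodes, 197 occurred in more than 1 library. The label of an epithelial preparation held for most cells, but 467 cells formed a T cell-like cluster, in which 9 T cell markers summed to 6801 to 14487 CPM.

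Enterocyte-like cells of each library sat mostly in clusters of their own, which bears on each comparison of libraries within this class. Sham 1 gave 669 of the 679 cells of 1 cluster, sham 2 gave 1771 of 1903, sham 3 gave 777 of 807 and resection 2 gave 2350 of 2474 of theirs. Resection 1 gave 983 of 995, 912 of 914 and 401 of 404 cells of 3 further clusters. The part of this in differences between groups was not tested.

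Alpi was highest in enterocyte-like cells, the absorptive cells of the villus, among the classes with at least 20 cells in every library. Their Alpi level was 261 CPM in sham 1, 251 in sham 2, 172 in sham 3, 370 in resection 1 and 242 in resection 2. Sham 3 was the lowest and resection 1 the highest, while resection 2 lay below sham 1 and sham 2, so the groups overlapped. The mean over the 5 libraries was 259 ± 71.0 CPM (SD, n = 5). Alpi had 15248 UMIs in these 10892 cells.

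Immature enterocyte-like cells, named by Gsdmc2, Gsdmc4 and other genes of newly formed absorptive cells, held less Alpi in every library. The level was 90.1, 57.0 and 63.3 CPM in sham 1, 2 and 3 and 79.8 and 45.3 CPM in resection 1 and 2. Enterocyte-like cells exceeded them 2.72-fold to 5.35-fold within the 5 libraries. In sham 3, 577 of its 964 immature cells came from a cluster led by Duoxa2, F3 and Hk2, and 91.7% of that cluster's cells were from sham 3.

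Proliferating cells were lower than immature cells in every library, and Paneth-like cells in 4 of 5. Cycling-like cells, named by Mki67 and Top2a, had 15.0 to 39.6 CPM and Paneth-like cells, the defensin-producing cells of the crypt base, had 6.41 to 50.7 CPM, in resection 2 above the 45.3 CPM of immature cells. Enterocyte-like cells exceeded cycling-like cells 6.73-fold to 11.5-fold and Paneth-like cells 4.78-fold to 26.9-fold. Cycling-like and Paneth-like cells did not keep 1 order, with cycling-like cells higher in 3 of 5 libraries. Stem-like cells had 14.0 to 48.4 CPM in 4 libraries. Sham 1 had none in this clustering, but 25 with genes scaled within each library and 10 with doublets kept. These levels across classes are a description without a test, because the classes come from clustering the same cells.

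**Figure D1:**
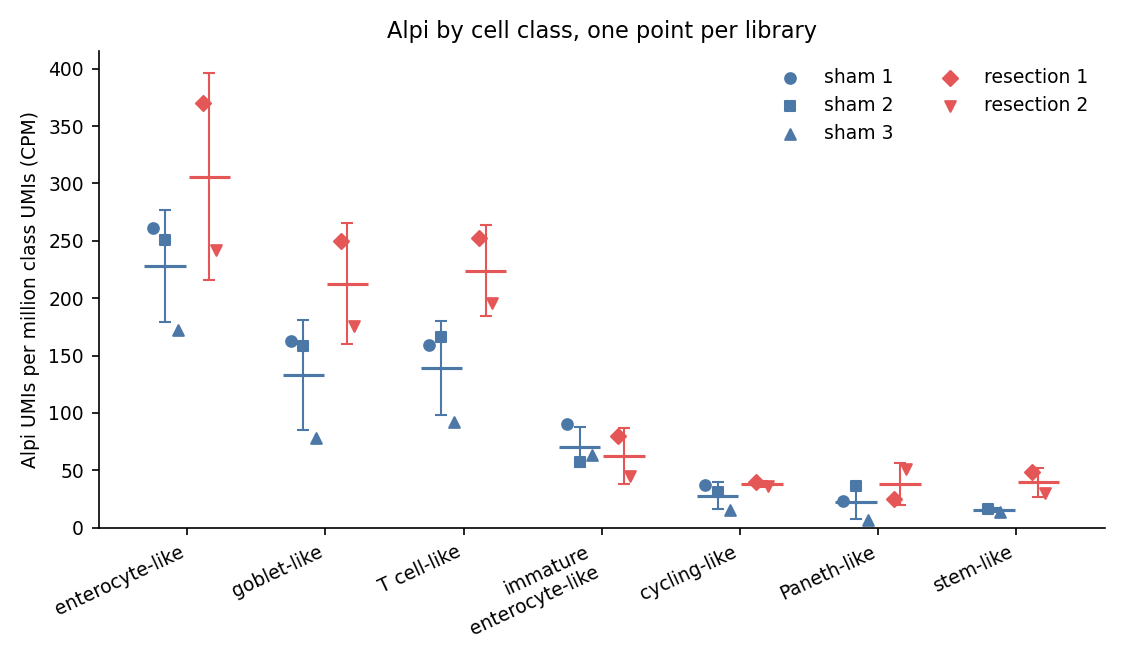
Alpi in CPM (vertical axis) for 7 cell classes, with 1 point per library, horizontal bars for group means and whiskers for the SD. Enterocyte-like cells lie between 172 and 370 CPM, and immature enterocyte-like cells between 45.3 and 90.1 CPM in the same libraries.

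Goblet-like cells, which secrete mucus, and T cell-like cells carried Alpi at levels between those of enterocyte-like and immature cells. Goblet-like cells had 163, 159 and 78.2 CPM in the sham libraries and 250 and 175 CPM in the resection libraries. T cell-like cells, which should lack the gene, had 160, 166 and 91.8 CPM in the sham libraries and 252 and 196 CPM in the resection libraries. Goblet-like and T cell-like levels were close to each other, with T cell-like cells higher in 4 of 5 libraries by at most 1.17-fold. The 24 tuft-like cells held 28 Alpi UMIs, too few for a level.

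The transcripts of other enterocyte genes were present in these classes in similar proportion. In T cell-like cells Alpi stood at 53.3% to 80.8% of its level in enterocyte-like cells of the same library, and the median of 12 enterocyte markers such as Anpep, Slc5a1 and Mttp stood at 55.8% to 73.7%. In goblet-like cells Alpi stood at 45.4% to 72.4% and the marker median at 41.6% to 69.6%. In immature cells the same values were 18.7% to 36.8% for Alpi and 23.1% to 39.4% for the markers. Alpi thus differed between these classes by about as much as the median of the markers. Single markers spread more widely, in immature cells from 9.91% in resection 1 to 67.9% in sham 1. In T cell-like cells of resection 1 and of resection 2, 1 of the 12 markers stood above Alpi. In stem-like cells of sham 2 all 12 did. The part of free RNA or of joined cells in the Alpi counts of other classes was not tested.

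**Figure D2:**
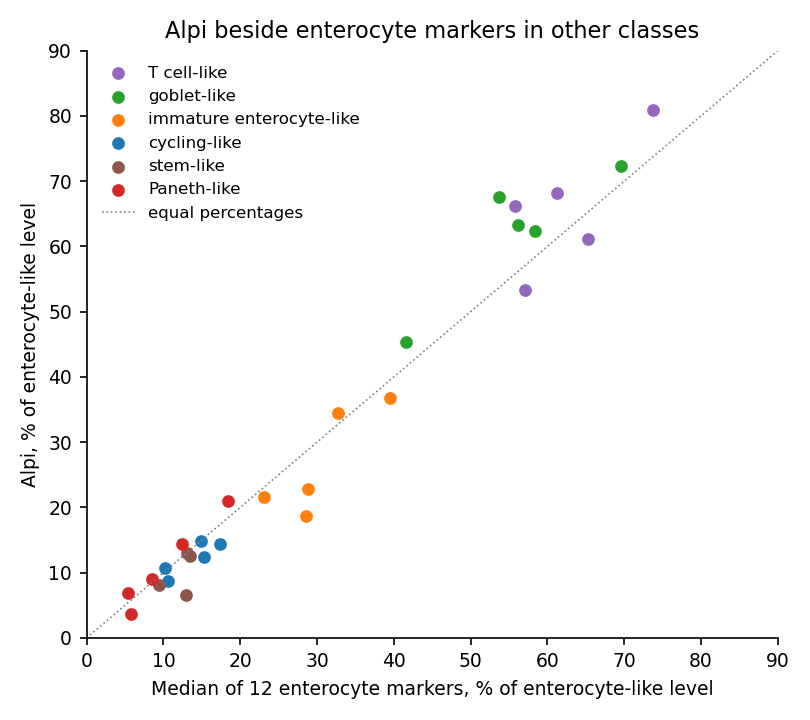
Alpi (vertical axis) and the median of 12 enterocyte markers (horizontal axis), both as a percentage of their level in enterocyte-like cells of the same library, with 1 point per class and library. The points follow the dotted line of equal percentages, and T cell-like cells reach 80.8% for Alpi.

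The share of cells with an Alpi UMI was also compared at equal depth. With each cell thinned to 2000 UMIs and no cell left out, 39.3%, 41.5% and 29.6% of enterocyte-like cells in sham 1, 2 and 3 held an Alpi UMI, and 49.9% and 39.8% in resection 1 and 2. The unthinned shares were 60.6% to 81.4%, at median depths of 4083 to 5434 UMIs. Thinned shares in goblet-like cells were 12.7% to 50.0%, and in resection 1 that share was level with the one of enterocyte-like cells. In T cell-like cells they were 15.0% to 37.5% and in immature cells 8.71% to 14.3%, below the T cell-like range. They were 2.59% to 9.77% in Paneth-like, 2.62% to 8.82% in cycling-like and, in 4 libraries, 3.16% to 8.70% in stem-like cells. No class gives a known background, so the part of expression in the immature share was not tested. T cell-like cells had median depths of 4204 to 6702 UMIs before thinning. The thinned share in enterocyte-like cells was 8.04 percentage points higher after resection (36.8 ± 6.34%, SD, n = 3, in sham and 44.8 ± 7.12%, SD, n = 2, in resection), with p = 0.4 in the exact two-sided permutation test. That test has 10 arrangements and a smallest possible p of 0.1, so it cannot pass 0.05.

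Counts per cell were low even where Alpi was highest. In resection 1, 18.6% of enterocyte-like cells had no Alpi UMI, 25.9% had 1, 46.3% had 2 to 4 and 9.15% had 5 or more. In the other 4 libraries 30.1% to 39.4% had none and 1.81% to 4.54% had 5 or more. Resection 1 stood apart from all the others in this distribution, resection 2 included.

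Along the villus, Alpi was higher in the middle than in the lower range of enterocyte-like cells, and highest in the upper range, in all 5 libraries. Each library's enterocyte-like cells were divided into 3 equal ranges by a score, the share of 8 tip genes such as Ada, Nt5e and Slc28a2 among the UMIs of these and 8 bottom genes such as Reg3b, Reg3g and Nlrp6. In sham 1 Alpi had 204, 232 and 348 CPM in the lower, middle and upper ranges. Sham 2 had 191, 237 and 346 CPM, and sham 3 had 133, 161 and 226 CPM. Resection 1 had 246, 360 and 532 CPM, and resection 2 had 136, 242 and 391 CPM. The lower range overlapped between surgery groups, with resection 2 beside sham 3, and in the middle and upper ranges the resection libraries were above all 3 sham libraries, in the middle by 242 against 237 CPM at the nearest.

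The upper range exceeded the lower one 1.71-fold, 1.82-fold and 1.70-fold in the sham libraries and 2.17-fold and 2.87-fold in the resection libraries. On the log2 scale the mean ratio was 0.80 ± 0.05 in sham (SD, n = 3) and 1.32 ± 0.29 in resection (SD, n = 2), with p = 0.1 in the exact permutation test, the smallest it can give. Bottom genes dominate the score, with 99.5 to 852 UMIs per cell against 4.61 to 19.1 for the tip genes. The upper range held fewer UMIs of bottom genes per cell after resection, 139 and 99.5, than in the sham libraries, 220, 257 and 292, so equal ranges do not mark the same score in both groups. With score limits shared by all libraries the ratios were 2.10, 2.12 and 1.84 in sham and 2.15 and 2.77 in resection.

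**Figure D3:**
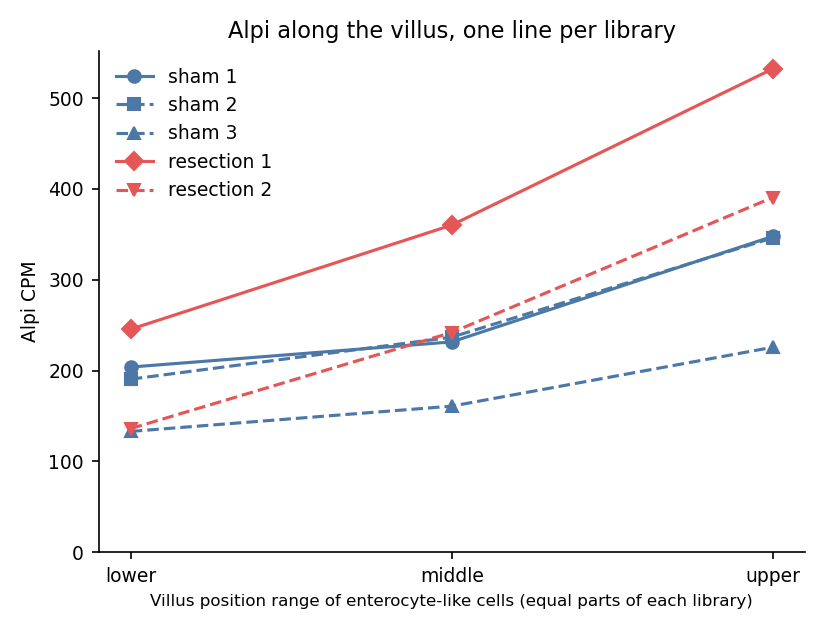
Alpi in CPM (vertical axis) in the lower, middle and upper villus range of enterocyte-like cells (horizontal axis), with 1 line per library, solid for sham 1 and resection 1 and dashed for the other set. Every line is highest in the upper range, which lies between 226 CPM in sham 3 and 532 CPM in resection 1.

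The cells with the most Alpi were a small cluster led by Ada, Slc28a2 and Nt5e, purine-handling genes of the villus tip. Its 115 cells had 595 CPM of Alpi, and 87.8% of them held an Alpi UMI. The level was above the rest of the enterocyte-like cells in every library, with 424 against 259 CPM in sham 1, 465 against 250 in sham 2, 593 against 171 in sham 3, 799 against 366 in resection 1 and 563 against 237 in resection 2. The sham libraries gave only 5 to 8 of these cells each. Other enterocyte-like clusters ranged down to 137 CPM in a cluster led by Areg, Acta1 and Ereg, which came mainly from resection 2.

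Alpi also followed regional genes of the absorptive cell. Enterocyte-like cells of each library were ranked by Fabp1 and Apoa4, fatty acid and lipoprotein genes strong in the proximal intestine, against Fabp6, the ileal bile acid-binding protein. Cells in the most proximal-type range had 1.45-fold to 2.57-fold more Alpi than those in the least. Inside single villus ranges the same ratio was 1.03 to 1.77 in the lower, 1.25 to 1.62 in the middle and 1.11 to 1.72 in the upper range, above 1 in 5 of 5 libraries each time. The steps between were not always in order, as in the lower range of sham 3 with 128, 139 and 132 CPM. Inside the upper villus range the most proximal-type cells also held more tip-gene UMIs in every library. In resection 2 these were 16.8 against 10.1 per cell, so villus position was not held equal there. In the lower and middle ranges tip-gene UMIs went either way. Fabp1 and Apoa4 together had 168 UMIs per cell in the most proximal-type range of resection 1 and 74.9 in that of resection 2, compared with 11.9, 14.8 and 15.3 in the sham libraries. These values were not tested between surgery groups.

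Among the genes whose pattern was most like that of Alpi were brush border and absorptive genes. Over 25 class sums (5 classes in 5 libraries) and 4421 genes, Pearson's r of log2(CPM + 10) with Alpi was 0.989 for Slc6a8, a creatine transporter, and 0.989 for Cdhr5, a cadherin that links microvilli. It was 0.986 for Cdhr2, the partner of Cdhr5, and 0.984 for Myo7b, a microvillar myosin. The sums share libraries, and Cdhr5 is among the naming markers, so these values describe the classes. Slc6a8 in enterocyte-like cells had 369, 389 and 298 CPM in the sham libraries, and 680 and 456 CPM after resection. Of the 10214 genes tested in this class, 8.36% showed the same separation and edgeR called 0%.

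Surgery was compared with edgeR's quasi-likelihood test on class sums, with Benjamini-Hochberg adjustment over all genes tested. In enterocyte-like cells the mean Alpi level was 228 ± 48.6 CPM in sham (SD, n = 3) and 306 ± 90.2 CPM in resection (SD, n = 2). The log2 fold change was 0.37 ± 0.29 (SE), with a 95% interval of −0.32 to 1.06 and an adjusted p of 0.9997. The difference was within the spread between libraries. No gene of 10214 passed 0.05 in this class with edgeR (0%), whereas 453 (4.44%) had an unadjusted p under 0.05 and DESeq2 called 53. Inside the library sets the log2 difference was 0.50 in sham 1 and resection 1 and 0.20 in the other set, and without resection 1 the fitted value was 0.16. The libraries compared here fill different enterocyte-like clusters, as given above.

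Over all epithelial cells together, the resection libraries did not overlap with the sham libraries. Alpi had 124, 155 and 91.2 CPM in sham 1, 2 and 3 and 221 and 171 CPM in resection 1 and 2. With edgeR the log2 fold change was 0.46 ± 0.35 (SE, adjusted p = 0.9997), and 17.8% of the 11760 genes tested showed the same separation. After TMM scaling sham 2, at 169 CPM, stood just above resection 2, at 167 CPM, and the separation was gone. Inside the sets the log2 difference was 0.83 in sham 1 and resection 1 and 0.47 in the other set, and without sham 3 the fitted value was 0.22. No gene was called in these sums (0% with edgeR, 334 or 2.84% at an unadjusted p under 0.05, 33 with DESeq2). The sums mix classes that differ in Alpi. Enterocyte-like cells were 705 of 1250, 2259 of 3673 and 1122 of 2743 epithelial cells in sham 1, 2 and 3. They were 2382 of 3645 and 4424 of 6457 in resection 1 and 2. The part of this mix in the Alpi difference was not tested.

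No other class gave a called difference for Alpi. In goblet-like cells, where the groups did not overlap either, the log2 fold change was 0.67 ± 0.38 (SE, edgeR adjusted p = 0.9985), beside 9.99% of genes with that separation and 0.107% called. It was 0.62 inside the set of sham 1 and resection 1 and 0.57 inside the other, and 0.36 without sham 3. In immature cells it was −0.26 ± 0.26 (SE, edgeR adjusted p = 0.99999, 0% called, 180 of 10051 genes or 1.79% at an unadjusted p under 0.05 and 1 called by DESeq2). The sign turned with doublets kept (0.09) and with genes scaled within each library before clustering (0.07). Inside the sets it was −0.17 and −0.41, without resection 1 −0.53 and without resection 2 −0.02. It was 0.51 ± 0.36 in cycling-like cells and 0.52 ± 0.45 in Paneth-like cells (SE, edgeR adjusted p of 0.9999 and 0.9991). Inside the set of sham 1 and resection 1 these differences were 0.08 and 0.10, and inside the other set 0.64 and 1.26. Without sham 3 they were 0.15 and 0.18, and without sham 2 they were 0.76 and 0.94. In cycling-like cells 0% of genes were called, with 123 (1.27%) at an unadjusted p under 0.05 and 0 called by DESeq2, and in Paneth-like cells 0.0644%. T cell-like cells, which are not epithelial, and stem-like cells, with none from sham 1 in this clustering, were not fitted.

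The change after resection was also compared between the upper and the lower villus range, after the data were seen, and the call of a difference depended on single libraries and on the range limits. The log2 fold change of Alpi was 0.01 ± 0.32 in the lower, 0.47 ± 0.31 in the middle and 0.58 ± 0.32 in the upper range (SE). Inside the set of sham 1 and resection 1 the values were 0.27, 0.64 and 0.61, and inside the other set −0.25, 0.28 and 0.45. None of the 3 passed the edgeR test, with adjusted p of 0.9998, 0.9991 and 0.646. The upper range separated the groups, as did 10.5% of genes there, and 0.214% of genes were called. The middle range separated them for 9.98% of genes, with 0.0225% called, but not for Alpi after TMM scaling. In the lower range 0% were called by edgeR, 182 (2.05%) had an unadjusted p under 0.05, and DESeq2 called 5. The difference between the upper and lower range was 0.61 ± 0.16 (SE, 95% interval 0.28 to 0.95, edgeR adjusted p = 0.0287), and 406 of 9133 genes were called in this comparison (4.45%). It was 0.35 inside the set of sham 1 and resection 1 and 0.70 inside the other set. With shared score limits it was 0.36 with an adjusted p of 0.510 in edgeR. The adjusted p was also above 0.05 in edgeR without sham 1 (0.121), sham 2 (0.0585), sham 3 (0.113) or resection 2 (0.525), and the difference was 0.36 without resection 2.

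The difference between enterocyte-like and immature cells in the change after resection was of similar size but did not pass. It was 0.67 ± 0.19 on the log2 scale (SE, 95% interval 0.26 to 1.09, edgeR adjusted p = 0.159). The value was 0.68 inside the set of sham 1 and resection 1 and 0.61 inside the other. None of 10651 genes was called by edgeR (0%), while 1191 (11.2%) had an unadjusted p under 0.05, and without resection 2 the count of called genes was 286.

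**Figure D4:**
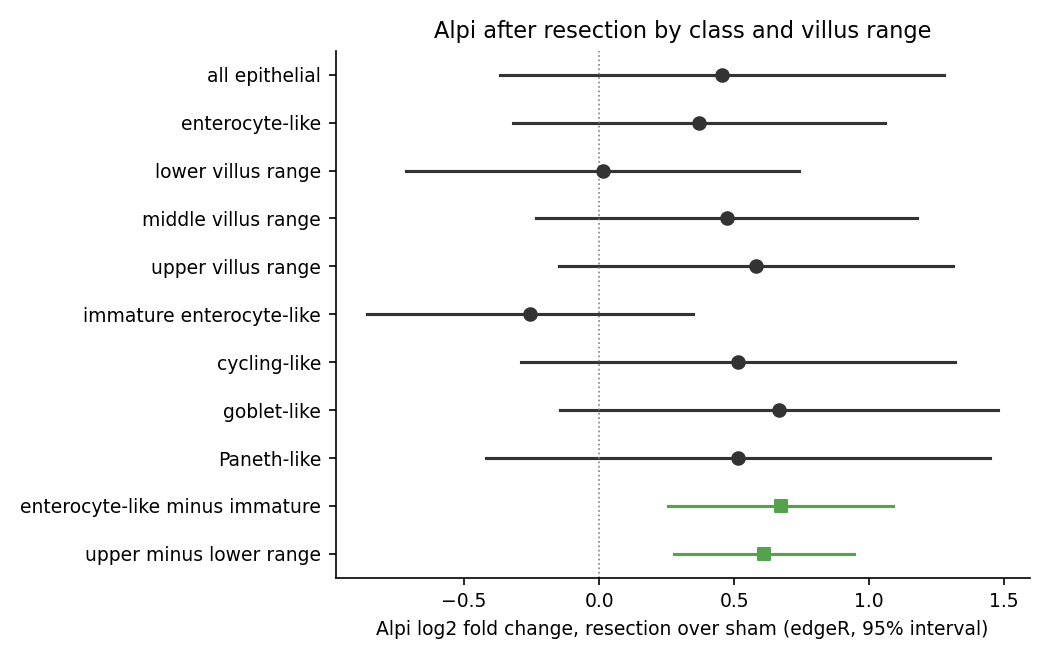
Log2 fold change of Alpi, resection over sham (horizontal axis), with its 95% interval from edgeR for each class and villus range in black, and in green the 2 differences between classes or ranges. The intervals in black all include 0, and the upper minus lower range lies at 0.61 with an interval of 0.28 to 0.95.

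Alppl2 had another distribution than Alpi. It was higher in immature than in enterocyte-like cells in 5 of 5 libraries, by 2.33-fold to 8.11-fold. Immature cells had 5.92, 4.73 and 3.31 CPM in sham 1, 2 and 3 and 7.29 and 3.98 CPM in resection 1 and 2. Enterocyte-like cells had 2.54, 1.15 and 1.04 CPM in the sham libraries against 0.900 and 0.682 CPM after resection. These rest on 122 UMIs in immature cells and 57 in enterocyte-like cells. Cycling-like cells had 1.09 to 6.62 CPM from 33 UMIs, and Paneth-like cells held 3 UMIs in all. The log2 fold change after resection in enterocyte-like cells was −0.93 ± 0.49 (SE, edgeR adjusted p = 0.9997). The resection libraries were below all 3 sham libraries, as were 5.82% of genes in that direction.

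**Figure D5:**
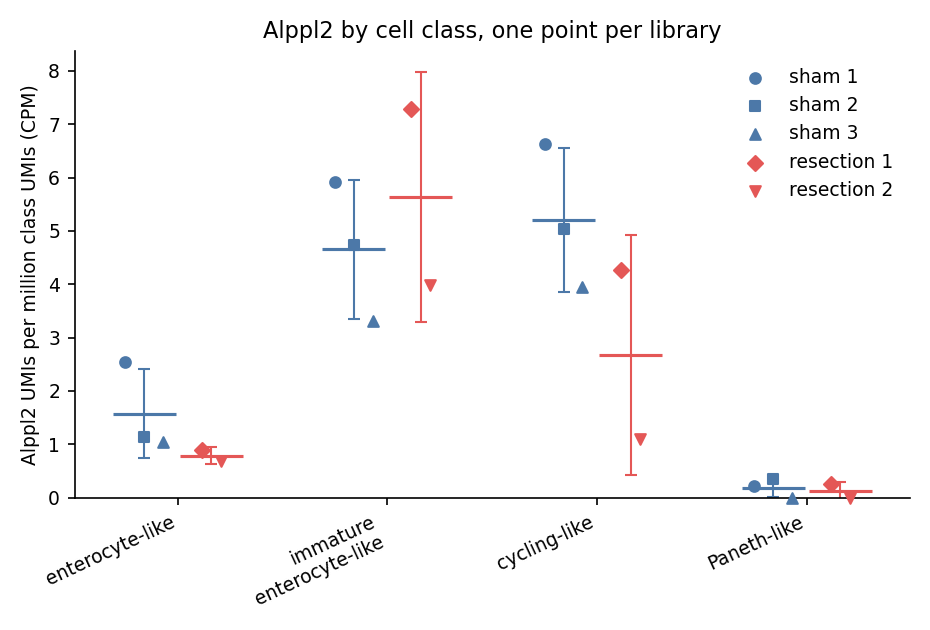
Alppl2 in CPM (vertical axis) for 4 cell classes, with 1 point per library, bars for group means and whiskers for the SD. Immature enterocyte-like cells lie between 3.31 and 7.29 CPM and enterocyte-like cells between 0.682 and 2.54 CPM.

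Genes that act with alkaline phosphatase were read from lists in the same enterocyte-like fit, in which 0% of genes were called. None of the 86 genes tested over the 6 lists passed edgeR's adjusted threshold of 0.05, and 8 had an unadjusted p under 0.05, beside 4.44% of all genes. GPI anchor synthesis and remodelling, which attaches the enzyme to the membrane, had 28 genes tested with a median log2 fold change of −0.06, beside −0.02 over all genes. Pgap1, an anchor-remodelling deacylase, had the lowest p of this list, with 25.1, 9.74 and 16.2 CPM in sham and 10.9 and 8.36 CPM in resection, and resection 1 lay above sham 2. Pigl and Pigc, enzymes of early anchor synthesis, had log2 fold changes of 0.58 ± 0.29 and 0.39 ± 0.28 (SE).

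The regulators described for intestinal alkaline phosphatase had 16 genes tested and a median of −0.04. Klf4, a factor of epithelial differentiation, had 157, 235 and 122 CPM in the sham libraries against 369 and 188 CPM after resection. Gata6 had 27.4, 24.5 and 16.1 CPM in the sham libraries against 56.2 and 23.9 CPM after resection, and Hnf4g had 75.9, 45.0 and 42.0 CPM in the sham libraries against 89.7 and 64.8 CPM after resection. In each of these 3 genes resection 1 was the highest library and resection 2 lay inside the sham range.

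Genes for sensing lipopolysaccharide, the substrate that the enzyme detoxifies, had 9 of 14 tested and a median of −0.20. Tirap, an adaptor of toll-like receptors, had a log2 fold change of −0.54 ± 0.49 (SE), and the receptor genes Tlr2 and Cd14 were at most 5.31 and 3.11 CPM in any library. Other surface phosphatases and nucleotidases had 11 tested and a median of 0.04, in a list that also held Lpcat3, an acyltransferase. Enpp3, an ectonucleotidase, had 1.78, 0.477 and 0 CPM in the sham libraries against 5.55 and 5.54 CPM after resection, without overlap. Its edgeR adjusted p was 0.502. The same separation was seen in 3 of the 11 genes of this list and in 8.36% of all genes tested. Entpd8, which removes phosphate from luminal nucleotides, had a log2 fold change of 0.33 ± 0.22 (SE), and Acpp, an acid phosphatase, 0.69 ± 0.46 (SE).

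Phosphate and calcium transport had 8 of 11 genes tested and a median of 0.11. Slc34a2, the apical phosphate transporter, had 436, 306 and 207 CPM in the sham libraries against 567 and 518 CPM after resection. The groups did not overlap, with an edgeR adjusted p of 0.9997 beside 8.36% of genes with the same separation. S100g, a calcium-binding protein, had a log2 fold change of −1.59 ± 0.92 (SE) and Slc34a3, another phosphate transporter, 0.78 ± 0.51 (SE).

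Brush border companions had 14 of 18 genes tested and a median of 0.14. Lct, the lactase gene, had 81.2, 67.2 and 39.2 CPM in the sham libraries against 774 and 259 CPM after resection. Its log2 fold change was 2.98 ± 0.45 (SE, edgeR adjusted p = 0.238). Treh, the trehalase gene, had 71.3, 97.9 and 62.0 CPM in the sham libraries against 250 and 132 CPM after resection, with 1.21 ± 0.35 on the log2 scale (SE, edgeR adjusted p = 0.789). Cd36, a fatty acid transporter, had 6.85, 5.25 and 1.68 CPM in the sham libraries against 31.9 and 8.36 CPM after resection. These 3 genes, named for the lowest p of the list, separated the groups without passing the test, beside 8.36% of all genes tested. Of the 14 genes tested, 6 lay above all sham libraries in both resection libraries and 1 lay below. Alpi in the same cells did not separate the groups.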

How the data were processed

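Droplet single-cell profiles of ileal epithelium from 3 sham and 2 resection libraries were analysed. The authors deposited UMI counts that were not normalized, from Cell Ranger per the labels. The builds mm10 and GRCm38 come from the submitters' processing notes, and the annotation is not given in the sources used here. Libraries held 1402, 4014 and 2868 cells (sham 1 to 3) and 3887 and 7233 (resection 1 and 2), with 11749028 to 41281731 UMIs.

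Filters of 500 or more genes and no more than 20% mitochondrial counts left 18955 cells. Each library's cells were scored for doublets against 2 simulated doublets per cell, and 720 cells (3.80%) were removed, 0.8% for every 1000 cells in the library. Counts scaled to 10000 per cell and 2000 variable genes, without mitochondrial and alkaline phosphatase genes, gave 30 components and 20 neighbours for Leiden clustering (leidenalg 0.10.2, resolution 1). A cluster took the class whose markers were highest and stayed unnamed with fewer than 3 markers detected or leading genes of another class. CPM are UMIs scaled to a class sum of 1000000. The position score adds 0.5 to tip and to bottom counts.

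Class sums with at least 20 cells in every library were tested with edgeR 4.0.16 (filterByExpr, TMM, two-sided, threshold 0.05) in R 4.3.3, and the library was a block in differences between classes. DESeq2 1.42.0 was an alternative. The fit was tested on simulated data. With 200 genes changed 2-fold in enterocyte-like sums it recovered 91.5% at a dispersion of 0.01 and 3% at 0.1. Replicates 1 and 2 of both groups share only a number. The limits for genes without a UMI cover counting error only, whereas the edgeR intervals also include the spread between libraries.

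Members, lists and library sets were chosen with earlier results of these data known. Beside the members and Alppl2, the named genes are those called in each list or, where none was, the 3 with the lowest p in enterocyte-like cells, and the 5 genes most correlated with Alpi, of which 1 is not reported here. Cluster leading genes, marker examples and other reference genes were named after their values were seen. Alternatives were other scaling, filters, tools, doublets kept, Leiden resolution 0.5, scaling within libraries, at most 10% mitochondrial counts, a block, a set term and libraries left out.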

Additional observations from a re-analysis of the deposited data

Results flagged for a closer look

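Between the upper and the lower villus range of enterocyte-like cells, equal parts of each library, the difference in the change of Alpi after resection was 0.61 ± 0.16 on the log2 scale (SE, edgeR adjusted p = 0.0287). In this comparison 406 of 9133 genes were called (4.45%). The ratio of upper to lower range, from the same counts, was higher in 2 of 2 resection libraries than in all 3 sham libraries. The exact permutation test of that ratio gave p = 0.1, the smallest it can give. The share of all genes with this separation was not computed. The comparison was chosen after the data were seen, and equal ranges do not mark the same score in both groups. The call held in 4 of 9 alternatives, and with score limits shared by all libraries the difference was 0.36 (edgeR adjusted p = 0.510). Over the 9 alternatives fitted with edgeR the adjusted p ran from 0.00211 to 0.525.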

How the results depend on the processing

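With 3 against 2 libraries, the log2 fold change of Alpi in enterocyte-like cells was between 0.16 and 0.56 under 15 alternatives and never passed 0.05. These alternatives did not all hold the same cells. At Leiden resolution 0.5, clusters with 2447 and 1604 resection 2 cells stayed unnamed and left the class. With doublets kept, a cluster with 1511 resection 2 cells did so. No enterocyte-like fit was run at no more than 10% mitochondrial counts. In all epithelial, cycling-like, goblet-like and Paneth-like cells the fold change of Alpi kept its sign and did not pass under any alternative run. In immature cells the sign turned with doublets kept (0.087) and with genes scaled within each library (0.067). In the lower villus range, at 0.01 as reported, it turned with the replicate block (−0.13), the set term (−0.062), inside the set of sham 2, sham 3 and resection 2 (−0.25), and when 1 library was left out (−0.33 to 0.31). The difference of the upper minus the lower range was 0.36 with shared score limits (edgeR adjusted p = 0.510) and 0.36 to 0.86 with 1 library left out, with adjusted p from 0.00211 to 0.525. The cause of these changes was not tested.

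Counts of called genes moved more than Alpi did. With DESeq2 they were 33 in all epithelial, 53 in enterocyte-like, 1 in immature and 3 in goblet-like cells. Without the filter they were 18 in all epithelial, 204 in enterocyte-like, 33 in goblet-like, 10 in cycling-like and 11 in Paneth-like cells. With the set term they were 3 in all epithelial, 4 in enterocyte-like, 12 in goblet-like and 9 in Paneth-like cells. Genes scaled within each library gave 2 in goblet-like cells, and doublets kept gave 2 in Paneth-like cells. Shared score limits gave 131 genes for the upper against the lower range. With 1 library left out the counts were 0 to 2 in enterocyte-like, 0 to 19 in goblet-like and 0 to 11 in Paneth-like cells, where 6 and 4 were reported. They were 0 to 286 for enterocyte-like against immature cells and 210 to 540 for the upper against the lower range.

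With the replicate block, 346 genes were called in all epithelial, 174 in enterocyte-like, 138 in immature, 123 in goblet-like, 48 in cycling-like and 48 in Paneth-like cells, and Alpi in none. The 2 numbers shared by the groups correlated at r = 0.514 and 0.229, but 2 pairs cannot show that the numbers pair the libraries. The ratio of Akp3 to Alpi, its alternatives and the comparison of cells with and without an Akp3 UMI were not run, because Akp3 had 0 UMIs. The limit of 0.0238 CPM at this depth is on assigned UMIs.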
